A study of Mus musculus with 2 samples.

Results

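The GDNF-RET branching genes are 8 genes taken by symbol from a table of 32285: the ligand gene Gdnf, its receptor genes Gfra1 and Ret, the transcription factor genes Etv4, Etv5, Sox8 and Sox9, and the feedback inhibitor gene Spry1. All 8 were found, and all 8 passed the filter on low counts in the fits reported here. They were measured as unique molecular identifiers (UMIs, 1 for each captured RNA molecule) in single cells of mouse kidney at postnatal day 0, in 2 libraries. Both libraries carry the genotype Rbpj c/+ ; Foxd1cre/+, so each carries 1 conditional copy of Rbpj, the nuclear partner gene of Notch signalling, and Cre under the control of Foxd1, a gene of stromal progenitors. All comparisons are between cell classes within these kidneys, since both libraries have the same genotype. The labels do not say whether the libraries came from separate animals, so p-values may not cover the spread between animals. They rest on how far class differences varied between these 2 libraries, after a shift common to all classes was removed.

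In kidney development GDNF is made by the mesenchyme around the tips of the ureteric bud, the epithelial tree that becomes the collecting ducts. It binds GFRA1, a co-receptor anchored to the membrane, and the pair activates RET, a receptor tyrosine kinase of the tip cells. RET signalling raises ETV4 and ETV5, SOX8 and SOX9 act with it in tip cells, SPRY1 restrains it, and branching needs this balance. Nephron progenitors surround each tip, with stromal progenitors outside them, and early nephrons form from progenitors beside the tip.

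The members lie on 7 chromosomes of GRCm38. Gdnf spans chr15:7810846-7837575 on the plus strand, Ret chr6:118151745-118197718 on the minus strand and Gfra1 chr19:58235604-58455909 on the minus strand. Etv4 spans chr11:101769742-101785371 on the minus strand and Etv5 chr16:22381309-22439719 on the minus strand. Spry1 spans chr3:37639947-37644598 on the plus strand, Sox8 chr17:25565892-25570686 on the minus strand and Sox9 chr11:112782224-112787760 on the plus strand. All 8 are protein-coding. Gfra1, Sox8 and Spry1 each overlap 1 annotated gene on the other strand (Gm16277, 2810468N07Rik and Gm42922). Since the strand rule of the counting is not given in the sources used here, reads of such a pair may not be told apart.

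The RefSeq table of promoters held windows for 5 members, Gdnf, Gfra1, Etv5, Spry1 and Sox8. Shown are the 250 bases before the first annotated start of the ligand gene and of 2 genes that were highest in the tip, each free of annotated exons on its strand. Capitals mark matches to the TATA-box letters TATAAA or to the GC-box letters GGGCGG, searched on both strands together with CCGGAA, the core letters bound by ETS factors. The window of Gdnf is chr15:7809798-7810047 on the plus strand, that of Spry1 chr3:37639697-37639946 on the plus strand and that of Sox8 chr17:25570687-25570936 on the minus strand.
Gdnf: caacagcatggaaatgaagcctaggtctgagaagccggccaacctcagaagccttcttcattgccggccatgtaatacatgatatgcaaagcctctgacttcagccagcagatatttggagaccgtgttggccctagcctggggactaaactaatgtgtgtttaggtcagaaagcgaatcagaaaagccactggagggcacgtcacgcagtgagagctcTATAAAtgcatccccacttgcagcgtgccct
Spry1: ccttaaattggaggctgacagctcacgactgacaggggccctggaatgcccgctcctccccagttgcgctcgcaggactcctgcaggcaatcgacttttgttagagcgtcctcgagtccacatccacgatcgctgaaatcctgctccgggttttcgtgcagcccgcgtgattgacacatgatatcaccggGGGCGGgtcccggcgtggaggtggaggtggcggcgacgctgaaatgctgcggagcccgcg
Sox8: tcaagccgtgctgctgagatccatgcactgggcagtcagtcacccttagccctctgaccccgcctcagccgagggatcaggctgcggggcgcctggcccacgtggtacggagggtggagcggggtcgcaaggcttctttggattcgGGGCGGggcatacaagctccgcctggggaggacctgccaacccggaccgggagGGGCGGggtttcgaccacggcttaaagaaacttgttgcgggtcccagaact
The Gdnf window shown held 1 TATA box, the Spry1 window 1 GC box and the Sox8 window 2 GC boxes. None overlapped another match, and no ETS core lay in these 3 windows. The shown Gdnf window follows a RefSeq start and ends before the start of the Gdnf span given above. Another RefSeq window of Gdnf, chr15:7813477-7813726, held no TATA box, GC box or ETS core. The only ETS core match among the members' windows was in the Gfra1 window. Of 32851 promoter windows of this length, 12.4% held a TATA box, 32.7% a GC box and 12.03% an ETS core.

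The libraries held 200331687 and 173166168 UMIs. After filters and removal of doublets 5284 and 4064 cells remained, and before that removal the median cell held 15016 and 20007.5 UMIs. The libraries shared 6 barcodes. Cells were gated with fixed marker genes that exclude the members, and class names below stand for these marker gates. The ureteric tip held 58 and 39 cells, the collecting duct 100 and 86, nephron progenitors 664 and 393, and stroma 1095 and 949, of which 383 and 443 had a Foxd1 UMI. Median depth was 43925.5 and 39071 UMIs in tip cells, 18747.5 and 26613 in the collecting duct, 18004 and 25063 in progenitors and 11082 and 16078 in stroma. Levels are given as counts per 1000000 UMIs of a class (CPM), in library 1 and then library 2. Because 3' counts capture genes unequally, levels are compared between classes for 1 gene and not between genes.

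The sums of the defining markers describe the gates. The same genes assigned the cells, so these sums are no independent check of purity. The 4 tip markers summed to 944 and 794 CPM in the tip and to 34.4 and 38.04 in the collecting duct, while the 6 collecting duct markers summed to 95.7 and 143 in the tip and to 4951 and 4489 in the collecting duct. The 5 progenitor markers summed to 1554 and 1678 in progenitors and to 13.2 and 15.5 in stroma, and the 6 stromal markers to 46.03 and 33.9 in progenitors and to 6401 and 5886 in stroma. A group of 57 and 118 ureteric cells led by S100g, with markers of both the collecting duct and the distal nephron, was kept apart from the collecting duct.

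The ligand gene Gdnf and the signalling receptor gene Ret were found mainly in different classes, while progenitors held both Gdnf and Gfra1. Gdnf was highest in stroma with a Foxd1 UMI, while Gfra1, Ret, Etv4, Etv5, Spry1, Sox8 and Sox9, 7 of 8 members, had their highest level in the ureteric tip in both libraries. The tip gave 2.77% and 2.85% of all UMIs, and it gave 87.7% and 89.8% of those of Ret, 28.7% and 32.4% of Gfra1, 22.3% and 21.5% of Etv4, 20.03% and 22.1% of Etv5 and 30.1% and 33.3% of Sox9. Stroma gave 53.0% and 66.1% of the Gdnf UMIs and progenitors 33.5% and 17.5%. Progenitors also gave 26.7% and 28.9% of the Gfra1 UMIs. Most UMIs of Gfra1, the Etv genes and Sox9 lay in other classes.

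**Figure D1:**
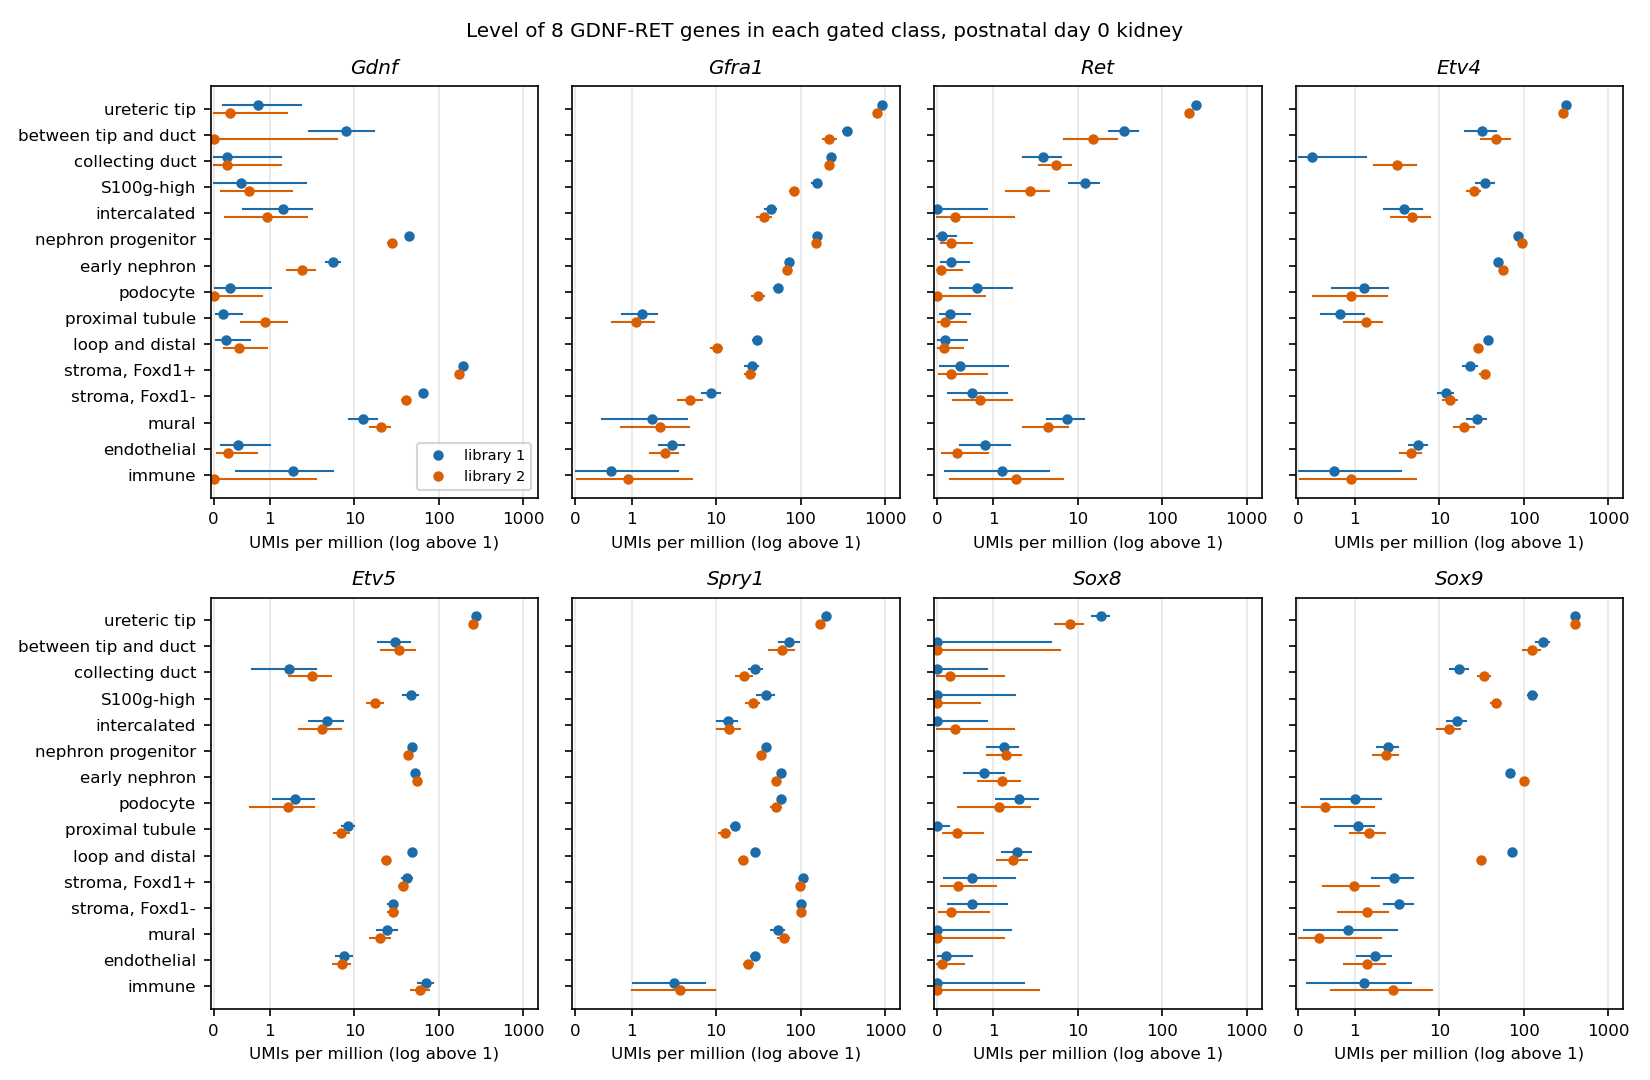
Level of each gene in CPM (horizontal axis, logarithmic above 1) in 15 gated classes (vertical axis); points are the 2 libraries and lines their 95% counting intervals. The tip row is the rightmost in every panel but that of Gdnf, which peaks in Foxd1-positive stroma at 194 and 171.

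**Figure D2:**
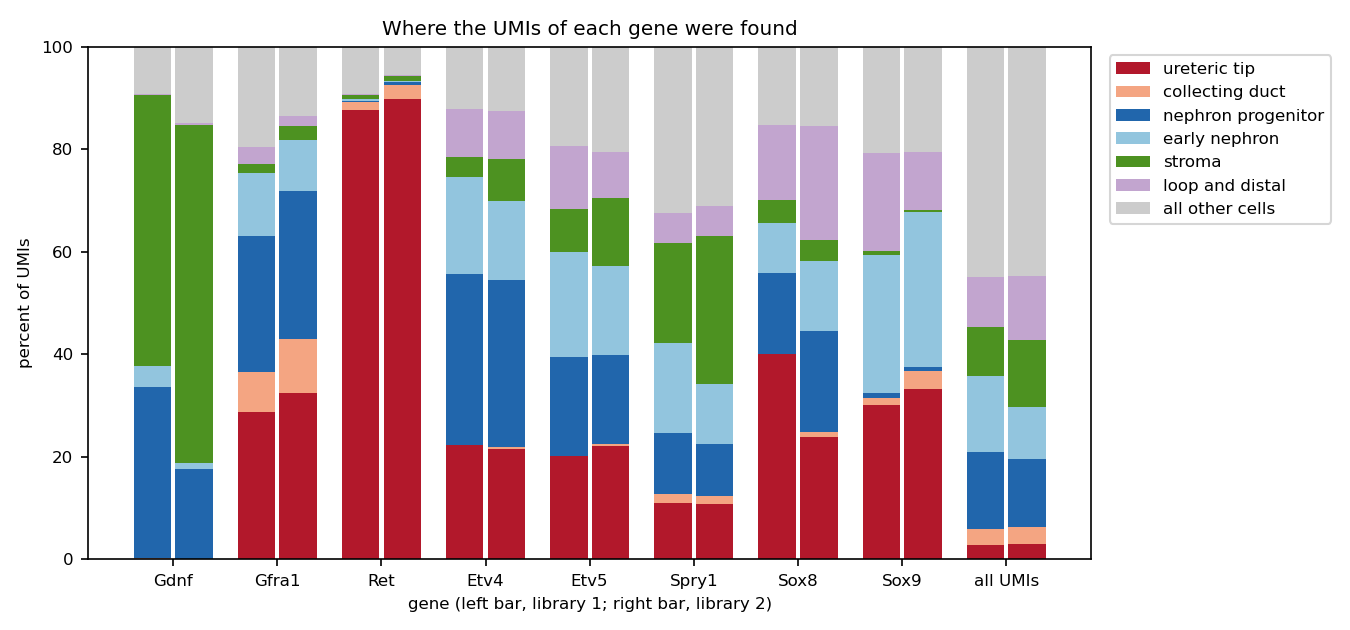
Percent of each gene's UMIs (vertical axis) found in each class, left bar library 1 and right bar library 2, with all UMIs in the last pair of bars. The tip fills 87.7% and 89.8% of the Ret bars against 2.77% and 2.85% of all UMIs.

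Each comparison was tested with edgeR on summed counts at an adjusted p of 0.05, and the members are read beside all tested genes. Between the tip and the collecting duct 7 of 8 members were called, all higher in the tip, where 33.5% of all tested genes were called and 15.1% were higher; the members' median log2 fold change was 4.67 and that of all genes -0.05. Between the tip and progenitors all 8 were called, 7 higher in the tip, beside 37% of all genes called and 17.7% higher. Between the tip and stroma all 8 were called, 7 higher in the tip, beside 45.4% and 21.6%. Between the collecting duct and progenitors 7 were called, 2 higher in the collecting duct, beside 50.8% and 25.3%. Between the collecting duct and stroma 7 were called, 3 higher in the collecting duct and 4 lower, beside 53.7% of all genes called, 26.7% higher and 27% lower. Between progenitors and stroma 4 were called, 2 in each direction, beside 45.2% of all genes called, 22.1% higher in progenitors and 23.1% lower. Between early nephron and progenitor cells 5 were called, 2 higher and 3 lower in early nephron cells, beside 31.9% of all genes called, 16.1% higher and 15.8% lower, and between stroma with and without Foxd1 3 were called, all higher with Foxd1, beside 3.27% of all genes called, 1.21% higher and 2.06% lower. The comparisons share classes, so their counts are not independent of each other.

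**Figure D3:**
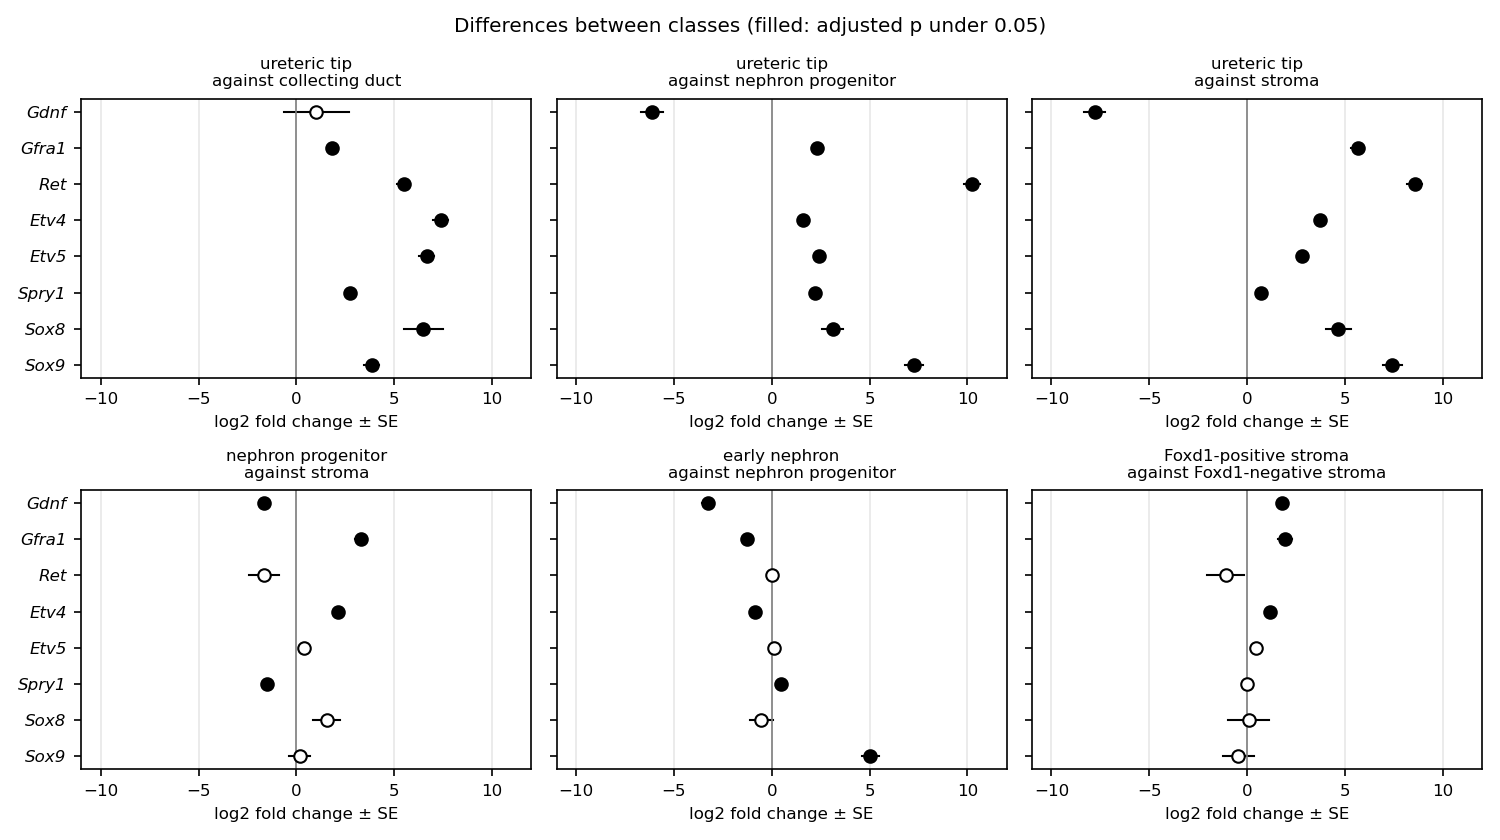
Log2 fold change (horizontal axis) of each member (vertical axis) in 6 comparisons, first class minus second; lines are 1 standard error, and filled points have an adjusted p under 0.05 in edgeR. Lines shorter than the point are hidden, and none is drawn for Ret between early nephron and progenitor cells, where the log2 fold change was -0.0042 and the standard error 5.21.

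Gdnf, the ligand gene, was at 194 and 171 CPM in Foxd1-positive stroma (940 and 1381 UMIs) and at 64.6 and 40.7 in Foxd1-negative stroma. Both values with Foxd1 lay above both without it, by a log2 fold change of 1.80 ± 0.26 (SE; adjusted p = 0.000256). The call was lost with 10% free RNA subtracted, at a log2 fold change of 1.84 and an adjusted p of 0.0818, and held under 12 of 13 alternatives, whose adjusted p ran from 8.72e-08 to 0.0818. Foxd1-positive cells had median depths of 11858 and 16625 UMIs against 10733 and 15222.5. The subsets also differed in markers of other classes. Mural markers summed to 400 and 978 with Foxd1 against 1303 and 1751 without, and early nephron markers to 23.0 and 17.0 against 94.8 and 180. Intercalated markers went the other way, at 15.1 and 14.4 against 10.3 and 11.6. The part of such admixture in the differences between these subsets was not tested. Among the Foxd1-negative cells, those with Penk, a medullary stromal gene, were at 60.8 and 38.4 and those with neither gene at 68.9 and 44.7, so these subsets overlapped.

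Gdnf in nephron progenitors was at 44.4 and 27.8 CPM, from 922 and 450 UMIs. All stroma stood at 113 and 107, and progenitors were lower by a log2 fold change of -1.66 ± 0.27 (adjusted p = 3.58e-05). Stromal markers in progenitors were at 46.03 and 33.9 of the 6401 and 5886 in stroma, and Gdnf in RNA outside cells was at 14.1 and 14.5, while podocytes held 0.286 and 0 and proximal tubule cells 0.172 and 0.922. Foxd1, which is not among those stromal markers, was at 30.6 and 27.1 in progenitors against 60.6 and 93.1 in all stroma. It was at 161 and 184 in Foxd1-positive stroma, which was selected on a Foxd1 UMI. The part of stromal RNA in the Gdnf of progenitors was not tested. Progenitors with Cited1, a gene of the uncommitted state, were at 46.7 and 28.4 and those without at 23.0 and 22.9. The split rests on a detected Cited1 UMI, with 559 and 332 cells against 105 and 61, and depth was not held equal. In stroma without any UMI of a progenitor marker Gdnf was at 114 and 101, close to all stroma. Early nephron cells, which form from progenitors, were at 5.595 and 2.39, lower than progenitors by a log2 fold change of -3.26 ± 0.32 (adjusted p = 7.08e-08).

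Ureteric cells had almost no Gdnf. The tip held 3 and 1 UMIs of it and the collecting duct 1 and 1, at or below the 3 counts that a count of 0 allows, so no fold between them is given. From summed counts Gdnf was 199-fold higher in stroma than in the tip (95% counting interval 77.8 to 732) and 67.5-fold higher in progenitors (26.3 to 248). The mural class was at 12.8 and 20.5 CPM, and the erythroid class at 34.05 and 10.3 with stromal markers at 504 and 235; the part of stromal RNA in these values was not tested.

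**Figure D4:**
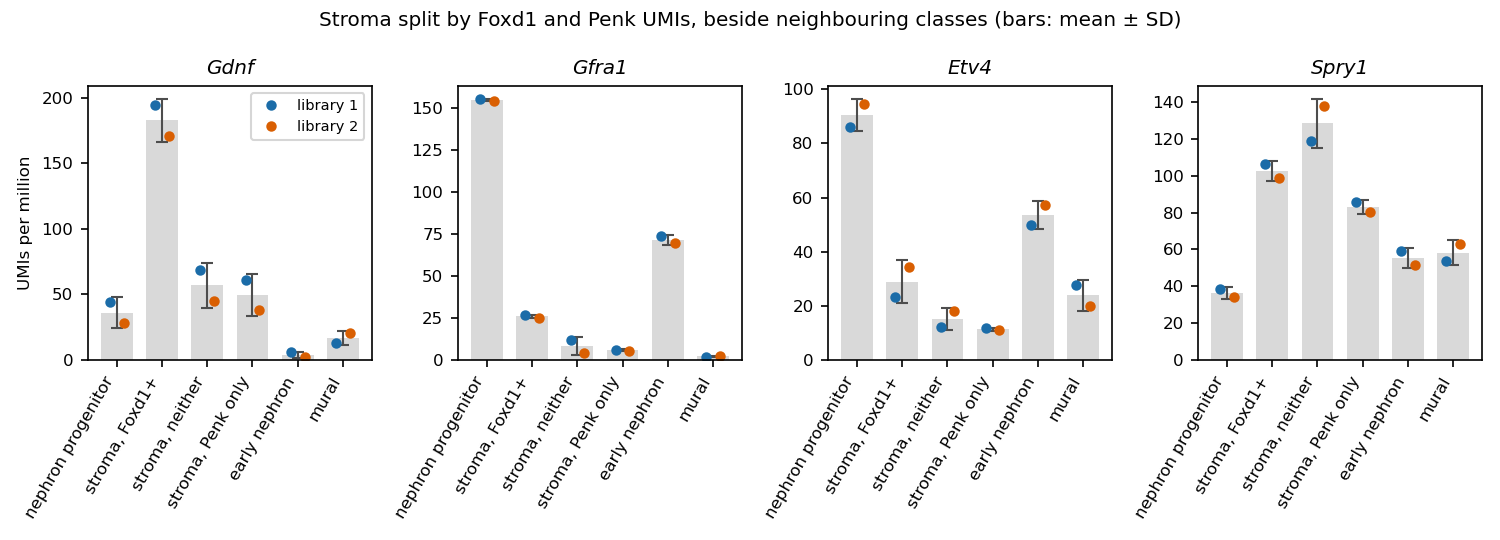
CPM (vertical axis) of Gdnf, Gfra1, Etv4 and Spry1 in progenitors, 3 stromal subsets, early nephron and mural cells (horizontal axis); bars are means, lines the SD of 2 libraries and points the libraries. Gdnf peaks in Foxd1-positive stroma, Gfra1 and Etv4 in progenitors, and Spry1 in stroma with neither Foxd1 nor Penk.

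Gfra1, the co-receptor gene, was at 918 and 804 CPM in the tip (3464 and 2811 UMIs), 226 and 220 in the collecting duct and 155 and 154 in progenitors. The order tip, collecting duct, progenitor held in both libraries. The tip was higher than the collecting duct by a log2 fold change of 1.84 ± 0.29 (adjusted p = 4.36e-05) and than progenitors by 2.32 ± 0.29 (adjusted p = 1.50e-06). The collecting duct and progenitors did not pass the test, at 0.49 ± 0.28 (adjusted p = 0.156), but did with only these 2 classes in the fit (adjusted p = 0.000566), the lowest of 13 alternatives that ran up to 1. Early nephron cells held 73.6 and 69.3, a log2 fold change of -1.24 ± 0.28 from progenitors (adjusted p = 0.00177), which was lost with free RNA subtracted (adjusted p = 0.0572) and held under 11 of 12 alternatives, down to an adjusted p of 5.77e-06. Podocytes were at 54.0 and 31.4 and intercalated cells at 44.2 and 37.0.

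In stroma Gfra1 was low, and higher in cells with Foxd1. Foxd1-positive cells were at 26.5 and 25.2 CPM and Foxd1-negative cells at 8.71 and 4.95, a log2 fold change of 1.93 ± 0.36 (adjusted p = 0.00265). All 13 alternatives kept the call, with adjusted p from 6.93e-06 to 0.0435. Foxd1-positive cells without any UMI of a progenitor marker were at 27.0 and 22.7. Progenitors with Cited1 held 168 and 171 and those without 31.7 and 17.9. Proximal tubule cells, at 1.32 and 1.13, and immune cells, at 0.634 and 0.940, were at the low end of the range.

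Ret, the signalling receptor gene, was at 249 and 209.9 CPM in the tip, from 938 and 734 UMIs. The collecting duct was at 3.90 and 5.54 (16 and 23 UMIs), lower by a log2 fold change of 5.49 ± 0.33 (adjusted p = 8.10e-10). Progenitors held 2 and 4 UMIs and stroma 7 and 8, and the tip was 1416-fold higher than progenitors (counting interval 649 to 3865) and 442-fold higher than stroma (267 to 791) from summed counts. Both adjusted p-values of edgeR were small, 5.50e-13 and 7.89e-13. Outside the ureteric tree Ret was highest in the mural class, at 7.51 and 4.40 from 17 and 12 UMIs. No Ret UMI was found in erythroid cells, which allows up to 5.38 and 2.37 CPM.

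In the S100g-high cells Ret was at 12.1 and 2.69 CPM, so the libraries lay far apart, and Gfra1 was at 155 and 83.3. Progenitors held Ret at 0.0964 and 0.247. The collecting duct exceeded progenitors in Ret by a log2 fold change of 4.74 ± 0.62 (adjusted p = 2.85e-06).

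Etv4, an ETS factor gene raised by RET signalling, was at 317 and 289 CPM in the tip and at 0.244 and 3.13 in the collecting duct (1 and 13 UMIs). The tip was higher by a log2 fold change of 7.37 ± 0.38 (adjusted p = 9.75e-11), or 179-fold from summed counts (counting interval 106 to 328). The size of this difference depended on the S100g-high cells, which held Etv4 at 34.98 and 25.5 and were set apart after the data were seen: with them in the collecting duct the log2 fold change was 4.74, the lowest of 15 alternatives that ran up to 8.15. Library 1 or library 2 alone gave 9.93 and 6.47. Outside the tip Etv4 was found in several classes. Progenitors were at 86.2 and 94.7, early nephron cells at 49.9 and 57.2, and loop and distal cells at 37.5 and 28.8. The tip exceeded progenitors by 1.60 ± 0.23 on the log2 scale (adjusted p = 9.71e-06), and early nephron cells were below progenitors by -0.88 ± 0.23 (adjusted p = 0.00505), a call lost with free RNA subtracted (adjusted p = 0.0696) and kept under 11 of 12 alternatives, down to an adjusted p of 6.30e-05.

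In stroma Etv4 was at 23.4 and 34.5 CPM with Foxd1 and at 11.9 and 13.5 without. The log2 fold change was 1.17 ± 0.26 (adjusted p = 0.0112), and the call was lost with free RNA subtracted (adjusted p = 0.123) and kept under 12 of 13 alternatives, down to an adjusted p of 0.000284. Progenitors exceeded stroma by 2.14 ± 0.24 (adjusted p = 3.07e-07). Progenitors with Cited1 were at 92.8 and 103 and those without at 23.0 and 24.6.

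Etv5, the close relative of Etv4, was at 274 and 253 CPM in the tip and at 1.71 and 3.13 in the collecting duct, a log2 fold change of 6.65 ± 0.38 (adjusted p = 1.93e-10). With the S100g-high cells, at 46.2 and 17.6, in the collecting duct it was 4.42, the lowest of 15 alternatives that ran up to 7.93. Early nephron cells, progenitors and stroma stood near each other, at 52.3 and 55.2, 47.8 and 43.3, and 33.6 and 33.4. Neither early nephron against progenitors (0.13 ± 0.24, adjusted p = 0.730) nor progenitors against stroma (0.41 ± 0.24, adjusted p = 0.179) passed the test, and Foxd1-positive against Foxd1-negative stroma did not either (0.46 ± 0.25, adjusted p = 0.517). With only the 2 classes compared in the fit, progenitors passed the test against stroma (adjusted p = 0.00129, with the other alternatives up to 0.5001), and so did Foxd1-positive against Foxd1-negative stroma (adjusted p = 0.0144, with the other alternatives up to 0.893).

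Immune cells separated the Etv genes. Etv5 was at 69.7 and 60.2 CPM there (110 and 64 UMIs), second to the tip in both libraries, while Etv4 was at 0.634 and 0.940 (1 and 1 UMIs), Ret at 1.27 and 1.88 and Spry1 at 3.17 and 3.76. RNA outside cells held 39.7 and 10.8 of Etv5 and 19.0 and 12.6 of Etv4. The difference between the Etv genes in immune cells was not tested.

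Spry1, the feedback inhibitor of receptor tyrosine kinases, was at 198 and 168 CPM in the tip, 103 and 99.7 in stroma, 59.1 and 51.7 in early nephron cells, 59.0 and 51.2 in podocytes, 38.6 and 34.2 in progenitors and 29.2 and 21.7 in the collecting duct. The tip exceeded the collecting duct by a log2 fold change of 2.74 ± 0.15 (adjusted p = 1.40e-10), progenitors by 2.19 ± 0.14 (adjusted p = 4.95e-11) and stroma by only 0.68 ± 0.13 (adjusted p = 0.000185). Stroma exceeded progenitors, with -1.51 ± 0.13 for progenitors minus stroma (adjusted p = 7.51e-09). Progenitors with Cited1 were at 35.5 and 31.3 and those without at 68.0 and 57.0, the opposite direction to Gdnf, Gfra1 and Etv4.

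Spry1 in stroma did not pass the test between cells with and without Foxd1. Foxd1-positive cells were at 106 and 98.6 and Foxd1-negative cells at 101 and 101, a log2 fold change of -0.01 ± 0.13, and 0 of 13 alternatives called it, with log2 fold changes from -0.03 to 0.08. Within the latter, cells with neither Foxd1 nor Penk were at 119 and 138 and cells with Penk at 85.5 and 80.1. Early nephron cells exceeded progenitors by 0.48 ± 0.13 (adjusted p = 0.00679), a call lost with free RNA subtracted (adjusted p = 0.0526) and without the library block (adjusted p = 0.0637), and kept under 10 of 12 alternatives, down to an adjusted p of 2.52e-05. The collecting duct was below progenitors by -0.55 ± 0.15 (adjusted p = 0.00334), a call lost with no gate margin (adjusted p = 0.0790) and kept under 12 of 13 alternatives, down to an adjusted p of 0.000349.

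Sox9, a SOXE factor gene, was at 408 and 399 CPM in the tip and at 17.3 and 34.2 in the collecting duct, a log2 fold change of 3.84 ± 0.40 (adjusted p = 3.68e-07) that ran from 2.80 to 3.95 over 15 alternatives. Progenitors were at 2.46 and 2.34 and stroma at 3.18 and 1.19, and the tip exceeded them by 7.26 ± 0.47 (adjusted p = 9.40e-11) and 7.42 ± 0.48 (adjusted p = 7.02e-11). Early nephron cells, at 68.2 and 101, were above progenitors by 5.04 ± 0.44 (adjusted p = 1.56e-08). That level was spread unevenly: 168 of 514 and 78 of 221 early nephron cells had a Sox9 UMI, and the median cell had 0. The highest cell had 160 and 134, and the tenth of cells with the most Sox9 held 81.5% and 81.7% of its UMIs. Cell depth was not held equal in these counts. Loop and distal cells were at 73.2 and 31.1 and the S100g-high cells at 125 and 47.3, so these classes varied more than 2-fold between libraries.

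Sox8, its relative, was scarce. The tip held 71 and 28 UMIs, or 18.8 and 8.01 CPM. The collecting duct held 0 and 1 UMIs, which makes the tip 112-fold higher from summed counts with a counting interval of 19.7 to 4485 (adjusted p = 8.79e-05). Progenitors were at 1.35 and 1.42 (28 and 23 UMIs), below the tip by 3.11 ± 0.55 on the log2 scale (adjusted p = 0.000275), and stroma at 0.621 and 0.314, below it by 4.65 ± 0.64 (adjusted p = 1.44e-05). Loop and distal cells and podocytes reached 1.94 and 1.70 and 2.001 and 1.16. The call between the collecting duct and progenitors (adjusted p = 0.0339) rests on 1 collecting duct UMI and was lost under 3 of 13 alternatives, whose adjusted p ran from 0.00661 to 0.0648.

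Single cells were compared at equal depth, each thinned to 3000 UMIs. In the tip 50% and 56.4% of cells then had a Ret UMI, 93.1% and 94.9% a Gfra1 UMI, 53.4% and 59.0% an Etv4 UMI, 56.9% and 61.5% an Etv5 UMI, 44.8% and 38.5% a Spry1 UMI and 56.9% and 56.4% a Sox9 UMI. Without thinning these shares ran from 92.3% to 100%. No tip cell had a Gdnf UMI after thinning, and 2 and 1 tip cells had one before it. Ret was found in 1% and 0% of collecting duct cells, 0.301% and 0% of progenitors and 0.690% and 1.23% of immune cells, which serve as background for a droplet assay.

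Gdnf at equal depth was found in 36.03% and 32.3% of Foxd1-positive stromal cells, 12.9% and 9.88% of Foxd1-negative ones, 10.1% and 7.12% of progenitors and 0% of podocytes. Gfra1 was found in 40% and 40.7% of collecting duct cells and in 27.9% and 32.3% of progenitors. Etv4 was found in 21.2% and 23.7% of progenitors and in no collecting duct cell. Etv5 was found in 12.2% and 11.96% of progenitors and in 1% and 2.33% of collecting duct cells, the latter from only 1 and 2 cells. In immune cells Etv5 was found in 19.3% and 7.41% and Etv4 in none. Shares depend on the depth chosen: at 6000 UMIs, which left out 30 and 23 shallower immune cells, Etv5 was found in 30.4% and 25.9% of them and Etv4 again in none.

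**Figure D5:**
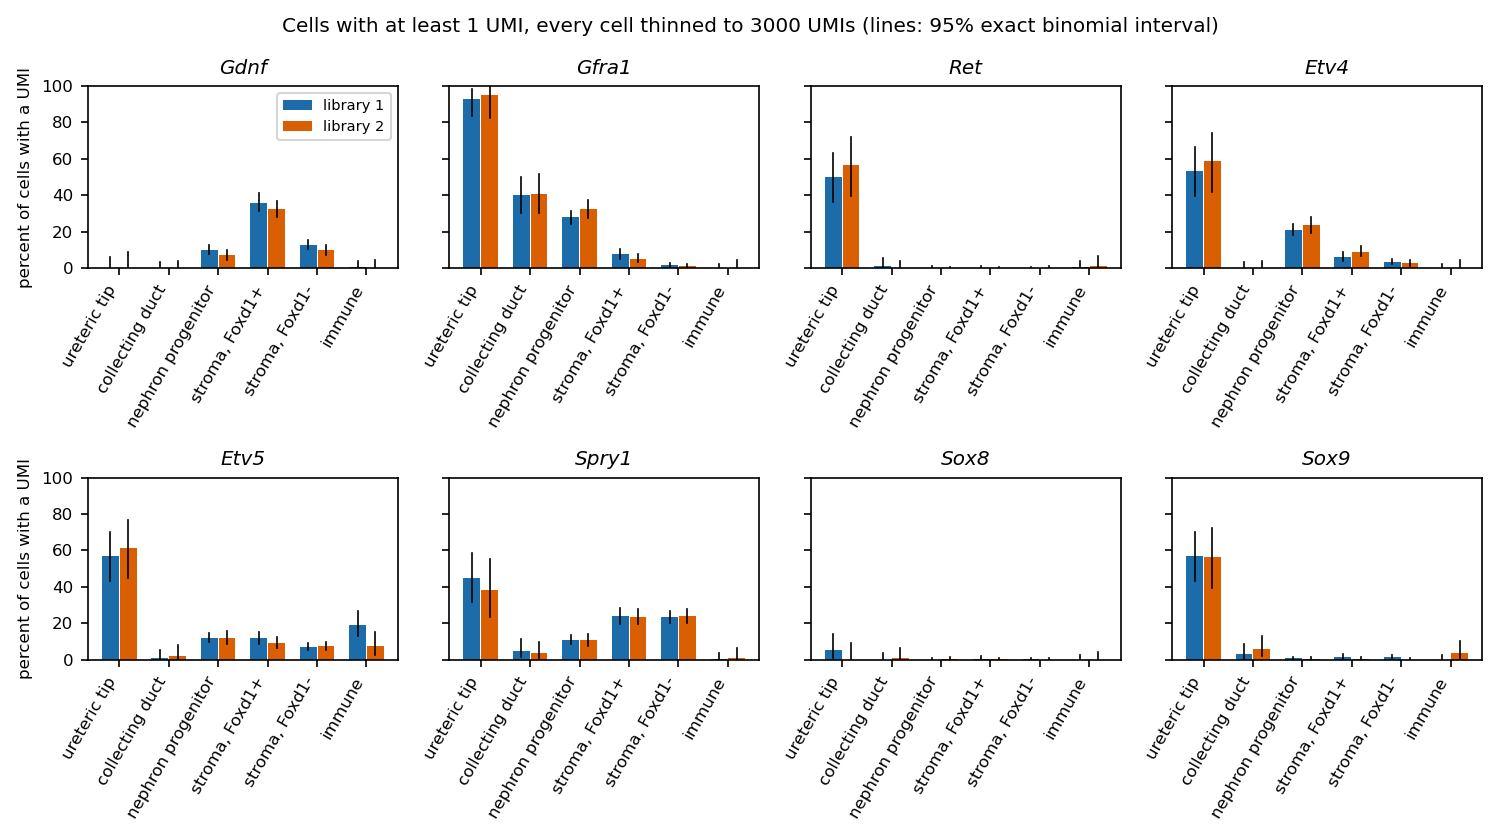
Percent of cells with at least 1 UMI (vertical axis) in 6 groups of cells (horizontal axis), each cell thinned to 3000 UMIs; bars are the 2 libraries and lines 95% exact binomial intervals. Gfra1 reaches 93.1% and 94.9% of tip cells and Gdnf 36.03% and 32.3% of Foxd1-positive stromal cells.

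Within the tip the members varied from cell to cell. Before thinning the median tip cell held 7.5 and 9 Ret UMIs and the highest 81 and 89, and the tenth of cells with the most Ret held 36.2% and 39.5% of them. For Gfra1 the median was 32.5 and 32 and the highest 304 and 284. Cell depth was not held equal in these counts. At 3000 UMIs, 28 of 29 and 20 of 22 tip cells with Ret also had Gfra1, near its share in all tip cells, 54 of 58 and 37 of 39. Etv5 was found in 69.0% and 63.6% of tip cells with a Ret UMI and in 44.8% and 58.8% of those without, with overlapping 95% intervals. Etv4 was found in 22 of 33 and 16 of 24 tip cells with Etv5 and in 9 of 25 and 7 of 15 without it, again with overlapping intervals.

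In progenitors and stroma, ligand and co-receptor genes could be found in the same cell. Of progenitors with a Gdnf UMI, 29.9% and 14.3% had Gfra1, against 27.6% and 33.7% of those without, so the libraries differed in direction. Of Foxd1-positive stromal cells with Gdnf, 11.6% and 7.69% had Gfra1, against 5.31% and 4% of those without, and the 95% intervals of each pair overlapped.

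A list of 70 other genes of the pathway, of which 65 were tested, was read beside the members. Of 14 response and feedback genes, 12 were higher and 1 lower in the tip than in the collecting duct, beside 15.1% and 18.4% of all genes. The 3 with the largest increase in the whole list were all of this role. Cxcr4, a chemokine receptor gene, was at 14.8 and 15.7 CPM in the tip against 0 and 0.241; its log2 fold change was 6.71 ± 0.71 (adjusted p = 4.98e-07). Spry4, a relative of Spry1, was at 29.9 and 23.7 against 0.244 and 0.241, and Dusp6, a phosphatase gene induced by ERK signalling, at 93.8 and 83.5 against 1.46 and 4.81. The 1 lower gene, the kinesin gene Kif26b, was at 86.1 and 73.5 against 445 and 365. Roles are those assigned in the list, and a response to RET was not tested for any gene. Over the list 24 genes were higher and 10 lower, with a median log2 fold change of 0.29 beside -0.05 over all genes.

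Against progenitors the tip was higher in 7 and lower in 4 of the 14 response genes, and against stroma in 7 and 3. The list as a whole had 20 higher and 26 lower in the tip than in progenitors, beside 17.7% and 19.3% of all genes. It had 18 higher and 29 lower than in stroma, beside 21.6% and 23.8%. Of 17 tested regulators of Gdnf, 11 were lower in the tip than in progenitors, among them Itga8, the integrin gene needed for Gdnf expression, at 6.62 and 2.29 against 553 and 566, and the transcription factor gene Osr1 at 0 and 0.286 against 61.1 and 34.8. Npnt, which encodes a ligand of that integrin, lay on the other side, at 337 and 238 in the tip against 14.5 and 15.7, and was higher still in the collecting duct, at 1522 and 1293. The adaptor genes Grb7 (84.3 and 70.1 against 0.916 and 0.925) and Dok6 (290.2 and 314 in the tip against 2.80 and 3.89 in stroma) and the epithelial factor gene Grhl2 (113 and 89.8 against 0.434 and 0.432 in progenitors) were also higher in the tip.

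Between progenitors and stroma 21 of the 65 pathway genes were higher in progenitors and 15 lower, beside 22.1% and 23.1% of all genes. Pax2, an activator of Gdnf, was at 1035 and 877 CPM in progenitors against 10.3 and 11.3 in stroma, Pax8 at 72.0 and 73.3 against 2.64 and 3.83, and Cxcr4 at 21.2 and 12.7 against 0.233 and 0.188. Tcf21, a mesenchymal factor gene, was at 24.2 and 25.1 against 313 and 323, and Bmp4, whose product counters GDNF, at 18.0 and 9.75 against 56.2 and 54.2. Gdnf itself was higher in stroma, and the part of these genes in its level was not tested. From progenitors to early nephron cells 8 pathway genes were higher and 23 lower, beside 16.1% and 15.8% of all genes. Among the lower were Itga8 at 34.1 and 21.8 and Kif26b at 80.1 and 33.2 against 1078 and 1135 in progenitors.

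Between the stromal subsets 4 of the 65 were higher with Foxd1 and 5 lower, beside 1.21% and 2.06% of all genes. Sall1, a regulator of Gdnf, was at 41.0 and 36.2 with Foxd1 against 15.4 and 7.37 without (log2 fold change 1.75 ± 0.30, adjusted p = 0.00135). Aldh1a2, the retinoic acid synthesis gene that acts on Ret in the tip, was at 304 and 286 against 114 and 84.0 (1.56 ± 0.28, adjusted p = 0.00212), and Mycn at 41.2 and 33.6 against 23.9 and 14.0. Lower with Foxd1 were Kif26b, at 88.3 and 82.4 against 227 and 481, Ncam1, at 141 and 170 against 371 and 567, and Bmp4, at 42.8 and 32.2 against 64.2 and 76.6.

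The genes whose levels followed each member most closely were ranked by Pearson r of log2(CPM + 1) over 28 sums from 14 classes, which share their 2 libraries; r is given as a description. For Gdnf they were Mfap4 (0.98), Gm17167 (0.93) and Tnc (0.93). For Ret they were Cytl1, Gm14133 and Gm41386 (0.90 each), and for Gfra1 Haglr (0.89), Capn6 (0.87) and Phactr3 (0.87). For Etv4 they were Dut (0.86), Ccp110 (0.85) and Rmi2 (0.84), and for Etv5 Pmf1 (0.87), Nmral1 (0.84) and Mad2l1 (0.84). For Spry1 they were Tcf7 (0.92), Stx1a (0.89) and Zfp637 (0.88), for Sox8 Wif1 (0.87), Kcnc4 and Gm36677 (0.85 each), and for Sox9 BC006965 (0.94), Gm17783 and Dscam (0.91 each). Among the members themselves Etv4 and Etv5 were the closest pair at 0.76, Ret and Etv5 stood at 0.51, and Gdnf and Sox9 were the farthest apart at -0.35.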

How the data were processed

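Single-cell RNA was measured in 2 libraries of newborn mouse kidney. Per the labels' protocols the 3' ends of cDNA were sequenced after Chromium capture, and the deposited values are raw UMI counts per gene and barcode. The submitters' processing notes name Cell Ranger 6.0.1 and mm10, while the file headers name Cell Ranger 4. Whether strand was used in counting is not given in the sources used here.

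A barcode was kept as a cell from 3000 UMIs and 500 genes upward if no more than 20% of its UMIs were mitochondrial. Scrublet scores (scanpy 1.11.5) removed the highest 0.8% per 1000 cells, 245 and 142 cells. Each cell was scored on 86 fixed marker genes, none of them a member. A marker's log of 1 plus its counts per 10000 UMIs was divided by its 99 percentile, with a floor of 2 counts per 10000, and a class score was the mean over its markers. A cell took the highest class at a score of at least 0.15 and at least 1.25 times the next. Ureteric cells were tip at 2 or more detected tip markers with 2 times the tip UMIs reaching the collecting duct UMIs, and collecting duct at 2 or more collecting duct markers with at least 10 times the tip UMIs. Ureteric cells with at least 5 S100g counts per 10000 UMIs were set apart. That threshold was set after the data were seen, without use of the members. Stroma was split by at least 1 Foxd1 UMI.

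Counts were summed per library and class. The fit took classes of 20 or more cells in each library, in edgeR 4.0.16 (limma 3.58.1, R 4.3.3) with trimmed-mean scaling, filterByExpr and the library as a block: 14 classes, 28 sums and 13 residual degrees of freedom, or 15, 30 and 14 with stroma split. Quasi-likelihood F tests were two-sided. Benjamini-Hochberg adjustment covered all tested genes outside the markers, 16646 and 16814, over 8 comparisons. A standard error is the log2 fold change divided by the square root of F. The procedure was tested on simulated counts. The block was used because all classes of a number come from 1 library; the labels give no replicate numbers, and the numbers here follow the order of deposit.

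Folds of summed counts carry 95% counting intervals, and a count of 0 allows up to 3 counts. These and the exact binomial intervals (Clopper-Pearson) cover counting error only. For shares of cells, every cell was thinned to 3000 UMIs. Free RNA was read from barcodes of 10 to 100 UMIs. Alternatives were DESeq2 1.42.0, its size factors, no filter, no block, only the classes compared, other minimums of UMIs and mitochondrial share, doublets kept, free RNA subtracted, other gates, and each library alone.

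Named genes are the 8 members, up to 3 pathway genes in each direction per comparison (largest log2 fold change among calls with 1 direction in both libraries and at least 10 counts in the higher class of each), and the 3 genes most correlated with each member. The members, the 70 pathway genes and the markers were chosen with earlier results of these data known. Promoter windows are RefSeq's on GRCm38.p6, positions are those of GENCODE M21 on GRCm38. Scripts ran on Python 3.11.15 with pandas 2.3.3, numpy 2.4.6 and scipy 1.17.1.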

Additional observations from a re-analysis of the deposited data

Results flagged for a closer look

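A small group of 16 and 20 ureteric cells met neither the tip gate nor the collecting duct gate and took no part in the comparisons, yet its levels of 6 members lay above what a count of 0 allows. Gfra1, the co-receptor gene, had a mean of 287 CPM there, with 355 in library 1 and 219 in library 2, and the value of library 2 was no higher than that of the collecting duct. Sox9 had a mean of 145.6 CPM (166 and 125) and Spry1 of 67.3 CPM (73.99 and 60.7), each above the collecting duct and below the tip in both libraries. Ret, the signalling receptor gene, had a mean of 25.4 CPM, from 27 and 9 UMIs or 35.7 and 15.2 CPM, so that library 2 alone gives the lower value of 15.2. Etv4 had a mean of 39.4 CPM (31.7 and 47.2) and Etv5 of 32.05 CPM (30.4 and 33.7). RNA outside cells held Etv5 at 39.7 and 10.8 and Spry1 at 33.9 and 61.4, so each had 1 library below free RNA. The other members named here lay above free RNA in both libraries.

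The urothelium class of 18 and 11 cells was too small for the comparisons. Etv5 had a mean of 15.6 CPM there, from 6 and 4 UMIs, above the level that a count of 0 allows in each library. RNA outside cells held Etv5 at 39.7 and 10.8, beside 16.8 and 14.4 in this class, so its library 1 value lay below free RNA.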

How the results depend on the processing

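Of 49 calls on members over the 8 comparisons, 42 held under every alternative with a test (11 to 15 each), and 5 of the 15 values without a call gained one under some alternative. No called value changed sign. Of the values without a call, 5 had both signs: Gdnf between tip and collecting duct (log2 fold change -0.66 to 1.88), Sox9 between progenitors and stroma (-0.44 to 0.52), Ret between early nephron and progenitor cells (-1.52 to 0.53), and Sox8 (-0.62 to 0.95) and Spry1 (-0.03 to 0.08) between the stromal subsets. With 10% free RNA subtracted, the calls between early nephron and progenitor cells went from 5 to 2 members and from 5311 to 3461 of all genes, and those between stroma with and without Foxd1 from 3 to 1 member and from 550 to 135 of all genes. The latter count was 320 with no replicate block and 1844 with only the 2 classes compared in the fit. The library number served as the block, and leaving that block out lost 1 member call, Spry1 between early nephron and progenitor cells (log2 fold change 0.48, adjusted p = 0.0637), and no other. Gained calls not given above were those of progenitors against stroma for Ret with a wider gate margin (-2.15, adjusted p = 0.0444) and for Sox8 with doublets kept (1.54, adjusted p = 0.0438) or with 2 classes in the fit (1.56, adjusted p = 0.0205). Keeping the S100g-high cells in the collecting duct and leaving out stromal cells with a progenitor marker UMI, both added after seeing the data, changed no member call. The former did move sizes: between collecting duct and stroma, Etv4 went from -3.62 to -0.99 and Etv5 from -3.84 to -1.62. With free RNA subtracted, Sox9 between early nephron and progenitor cells was at 7.67 and Gfra1 between the stromal subsets at 2.98. Of 64 shares of cells at 6000 UMIs or unthinned, 36 left the span of their 95% intervals at 3000 UMIs. The cause of these changes was not tested. With 2 libraries, a library alone gives a value and no test. Depth limits Sox8 and ureteric Gdnf, which rest on few UMIs.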
